A study of Oryza longistaminata with 12 samples.

Results

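Whole-pair ammonium deprivation was followed in root RNA of *Oryza longistaminata*, a wild perennial rice that spreads by rhizomes. The 6 libraries described here were taken by their sample titles from a series of 12, and are 3 −N libraries and 3 +N libraries. A ramet pair is a pair of young plants from neighbouring rhizome nodes that stay joined by the rhizome, and each ramet has its roots in a pot of its own. In −N pairs the roots of both ramets stood in 0 mM NH4Cl, and in +N pairs both stood in 2.5 mM NH4Cl. All plants, of strain IRGC10404, had first been grown in hydroponics with 1 mM NH4Cl as the nitrogen source, and roots were sampled after 24 h of treatment. The other 6 libraries come from split pairs, in which the root of a −N split ramet had 0 mM NH4Cl, the root of its +N split partner had 2.5 mM, and they are used here only to set the whole-pair change beside the change between the sides of such a pair. Excised pairs were used, so the roots were studied without the parent plant. The labels do not say whether the 3 samples of a group were separate pairs. The study's methods describe plotted values as coming from separately prepared pairs, but do not say so of these libraries, so the p-values measure only the spread between these samples.

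Ammonium enters root cells through transporters of the AMT family and is built into glutamine by glutamine synthetase (GS). Glutamate synthase (GOGAT) passes the amide nitrogen of glutamine to 2-oxoglutarate, and aminotransferases pass it on to aspartate, alanine and the other amino acids. Glycolysis, phosphoenolpyruvate carboxylase and the citrate cycle supply the carbon skeletons, and in rice roots cytosolic GS and NADH-dependent GOGAT are known to respond to ammonium supply.

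Reads counted on gene models ranged from 39071838 to 56252511 in −N libraries and from 41936089 to 54706077 in +N libraries. Of 29335 gene models, 25005 passed the filter on low counts and were tested. For −N replicate 1 the labels conflict, since its title and source name place it in −N and its treatment text describes a split pair. The title was followed. Over the 500 most variable genes this library lay at a root mean square log2 distance of 1.41 and 1.16 to −N replicates 2 and 3, against 2.16 to 2.23 to the −N split libraries. −N replicate 2 lay nearer to the −N split libraries, at 1.65 to 1.77, against 1.41 and 1.30 to −N replicates 1 and 3. +N replicate 2 lay at 1.59 and 1.74 to the other +N libraries, which were 1.28 apart. Counts of lists are repeated with −N replicate 1 left out, and with other libraries left out where that moves them by over 1.5 times. No pair of replicates in these groups differed by as little as sampling noise, with chi-square values per gene of 26.8 to 37.5 between −N libraries and 40.6 to 53.8 between +N libraries. Expression values are read counts scaled to library size as CPM (counts per set number of reads, as edgeR gives them) with TMM factors (trimmed mean of M values). They are not divided by gene length, so they compare samples and not genes. Changes are log2 fold changes of −N over +N with their standard error (SE), and a gene is called when its adjusted p, from the quasi-likelihood test of edgeR and the Benjamini-Hochberg method over all tested genes, is under 0.05.

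Between −N and +N roots 4798 genes differed in level, 19.2% of those tested. In −N roots 2211 genes were higher (8.84%) and 2587 were lower (10.3%). The called genes that were higher took 16.3% to 16.7% of all reads in −N libraries, against 10.2% to 11.2% in +N libraries, and those that were lower took 12% to 12.4% in −N libraries, against 19.6% to 21.3% in +N libraries. The changes of genes that fell were the larger ones, with a median log2 fold change of −0.78 against 0.62 for genes that rose. A change of at least 2-fold was reached by 411 genes that rose and 980 that fell, and one of at least 4-fold by 60 and 280. The 3 libraries of each group did not overlap for 4695 of the 4798 called genes, where 35.2% of all tested genes did not overlap. Without −N replicate 1, 1476 genes were higher (5.85%) and 1917 lower (7.60%), of which 1438 and 1839 were also called with it. Without +N replicate 2 the counts were 1547 and 1997. Calls were more frequent among genes with more reads, with 1.69% higher and 3.51% lower of genes under 1 CPM, and 14.4% and 17.5% of genes over 100 CPM.

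Functions are given for 3118 of the tested genes, from the descriptions in the study's supplementary tables, which list genes that changed in this series. Such genes are called far more often than others, with 23.7% higher and 47.0% lower in −N. The tables read here hold genes that were higher in −N only for chromosomes 1 to 5, and not to the end of chromosome 5. The digits after OL in an identifier were taken as the chromosome. On these 5 chromosomes 30.7% of described genes were higher and 42.3% lower. The list counts below are read against these shares, and since the study chose the genes on these same samples, the direction of a list is not independent evidence. A list or family below holds only its described members, not all genes of that kind. Where a list or family below has no member called in a direction by edgeR, none had an unadjusted p under 0.05 in that direction and DESeq2's Wald test called none, except in the WRKY and chlorophyll a-b binding families described below. The plot of list members shows each of the 18 lists used.

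**Figure D1:**
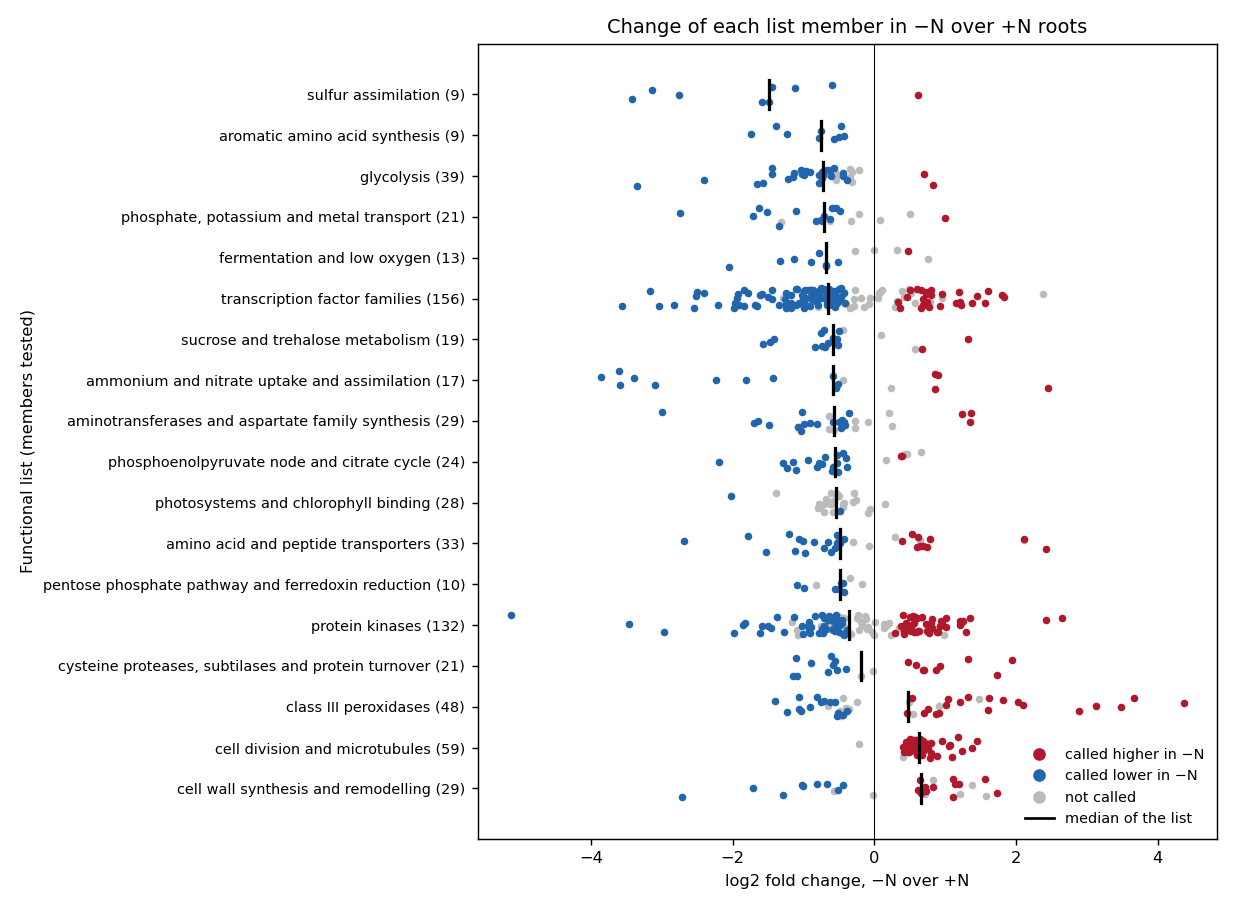
Log2 fold change of −N over +N roots (x axis) for each tested member of the 18 functional lists (y axis, number of members in parentheses), with called genes in colour and the median of each list as a black bar. Most points of the metabolic lists lie left of 0, while 50 of the 59 cell division and microtubule genes were called on the right and none on the left.

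The genes of ammonium uptake and assimilation moved in both directions. Among 17 members of the list for ammonium and nitrate, 11 were lower in −N roots (64.7%) and 4 higher (23.5%), with a median log2 fold change of −0.58, and the counts were also 11 and 4 without −N replicate 1. Members outside the naming rule are given because the list is shown whole, and were picked after their values were seen. *OlGS1;2* (OL03G000840), a cytosolic GS of the ammonium-induced type in rice, had 124, 132 and 123 CPM in −N libraries, against 1026, 1220 and 979.7 CPM in +N libraries. It fell by 3.09 ± 0.18 on the log2 scale (SE, adjusted p = 1.15e-06), and the groups lie far apart with little spread in either. *OlGS1;1* (OL02G003003), the other cytosolic GS with a name in the tables, had 1405, 1279 and 1367 CPM in −N libraries, against 776, 645 and 814 CPM in +N libraries. It rose by 0.86 ± 0.11 (SE, adjusted p = 0.000257), with every −N library above every +N library, so these 2 isoforms moved in opposite directions. OL03G000841, a further GS model numbered next to *OlGS1;2*, had 42.6, 45.1 and 42.9 CPM in −N libraries, against 407, 544 and 416 CPM in +N libraries. The change was −3.39 ± 0.21 (SE, adjusted p = 2.57e-06). Whether reads were divided between these 2 neighbours in counting was not tested.

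**Figure D2:**
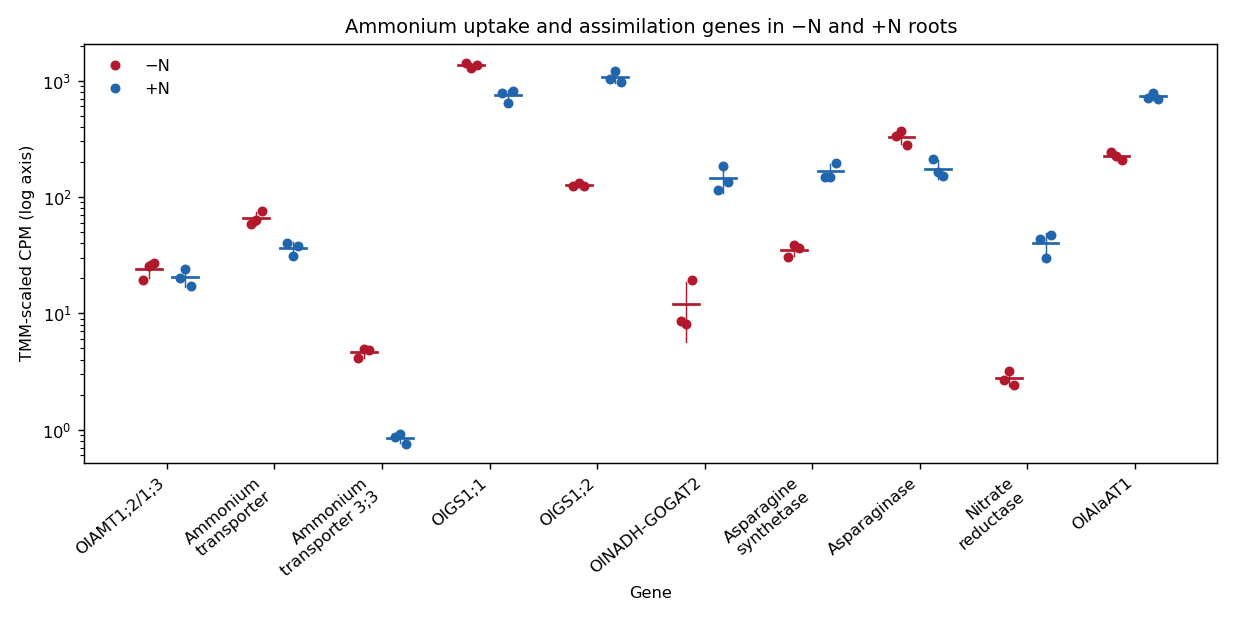
TMM-scaled CPM (log axis) of 10 genes of ammonium uptake and assimilation in the 3 −N libraries (red, left) and the 3 +N libraries (blue, right), with the mean as a horizontal line and the SD as a vertical one. *OlGS1;1*, asparaginase and 2 ammonium transporters lie higher in −N, *OlGS1;2*, *OlNADH-GOGAT2*, asparagine synthetase, nitrate reductase and *OlAlaAT1* lie lower, and *OlAMT1;2/OlAMT1;3* overlaps.

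*OlNADH-GOGAT2* (OL05G002363), the NADH-dependent enzyme that works in tandem with GS, had 8.67, 8.11 and 19.4 CPM in −N libraries, against 114, 186 and 135 CPM in +N libraries. The log2 change was −3.59 ± 0.36 (SE, adjusted p = 4.83e-05), and −N replicate 3 stood above the other −N libraries but far below all +N libraries. Asparagine synthetase OL03G001277, which moves amide nitrogen from glutamine to asparagine, had 30.5, 38.7 and 36.1 CPM in −N libraries, against 149, 149.5 and 197 CPM in +N libraries. Asparaginase OL04G002634, which releases ammonium from asparagine, had 332, 368 and 282 CPM in −N libraries, against 211, 162 and 151 CPM in +N libraries. The synthetase fell, with a log2 fold change of −2.24 ± 0.18 (SE, adjusted p = 1.42e-05), and the asparaginase rose, with one of 0.91 ± 0.16 (SE, adjusted p = 0.00204). The larger change of the 2 glutamate dehydrogenases, enzymes that interconvert glutamate and 2-oxoglutarate, was that of OL04G001869 at −1.81 ± 0.16 (SE, adjusted p = 1.92e-05), and that of OL03G003426 was −0.52 ± 0.10 (SE, adjusted p = 0.00329).

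The gene model of the ammonium transporters *OlAMT1;2* and *OlAMT1;3* (OL02G002258) had 19.5, 25.4 and 27.1 CPM in −N libraries, against 20.2, 24.0 and 17.1 CPM in +N libraries. These overlapped, and the log2 fold change of 0.23 ± 0.30 (SE, adjusted p = 0.657) was not called. This model carries the names of both transporters, so their reads cannot be told apart. Ammonium transporter 3 member 3 (OL02G001811), of the other AMT branch, had 4.09, 4.96 and 4.85 CPM in −N libraries, against 0.863, 0.918 and 0.759 CPM in +N libraries. OL03G003767, described only as a member of the ammonium transporter family, had 58.1, 64.0 and 75.1 CPM in −N libraries, against 39.9, 30.8 and 37.7 CPM in +N libraries. Both of these rose without overlap, with log2 fold changes of 2.45 ± 0.26 (SE, adjusted p = 6.42e-05) and 0.86 ± 0.15 (SE, adjusted p = 0.00201).

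Genes of nitrate use were on this list as well, although ammonium was the nitrogen source supplied. Nitrate reductase OL02G003220, the first enzyme of nitrate assimilation, had 2.69, 3.22 and 2.41 CPM in −N libraries, against 43.4, 30.1 and 47.2 CPM in +N libraries. The log2 change of −3.85 ± 0.23 (SE, adjusted p = 1.49e-06) was the lowest on this list. The remaining nitrate reductase models changed by far less, with log2 fold changes of −0.58 for OL08G001450 and −0.54 for OL02G000926, both called, and −0.43 for OL08G001452, which was not (adjusted p = 0.0647). The calls of OL08G001450 (adjusted p = 0.0506) and OL02G000926 (adjusted p = 0.0886) were lost without −N replicate 2, and that of OL02G000926 also without +N replicate 2 (adjusted p = 0.0568). The nitrate transporter OL02G002068 had a log2 fold change of −1.43 ± 0.24 (SE, adjusted p = 0.00154). A GS model with few reads, OL03G002893, was called lower, at −3.60 ± 0.86 (SE, adjusted p = 0.0118), with most of its reads in +N replicate 2, at 18.1 CPM beside 2.28 and 0.925 CPM in +N replicates 1 and 3. Without +N replicate 2 its log2 fold change was −1.44 (adjusted p = 0.0463), and in a fit to the 6 libraries alone it was not called (adjusted p = 0.0533).

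Described aminotransferases and enzymes of the aspartate family fell more often than they rose. Of these 29, the study had listed 18 as lower in −N and 3 as higher, so the direction was largely fixed by that choice. Of 29 members, 17 were lower in −N roots (58.6%) and 3 higher, with a median log2 fold change of −0.56, and 16 and 3 were called without −N replicate 1. Alanine aminotransferase OL03G000581, which forms alanine from pyruvate and glutamate, had 11.2, 8.55 and 9.58 CPM in −N libraries, against 74.3, 93.8 and 65.7 CPM in +N libraries. The second such enzyme, *OlAlaAT1* (OL10G000682), had 244, 226 and 209.5 CPM in −N libraries, against 712, 789 and 698 CPM in +N libraries. Both fell without overlap, by 3.00 ± 0.16 (SE, adjusted p = 1.09e-06) and 1.70 ± 0.11 (SE, adjusted p = 3.46e-06) on the log2 scale. *OlAspAT* (OL06G001607), which makes aspartate from oxaloacetate, had 56.2, 42.2 and 47.9 CPM in −N libraries, against 146, 136 and 126 CPM in +N libraries. Its log2 change was −1.48 ± 0.13 (SE, adjusted p = 2.11e-05), and that of a second aspartate aminotransferase, OL01G003115, was −0.46 ± 0.10 (SE, adjusted p = 0.00809).

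The route from aspartate to threonine, lysine and methionine fell at each named step. *OlAK* (OL03G003830), the aspartate kinase at its entry, had 141, 94.7 and 128 CPM in −N libraries, against 224, 305 and 208 CPM in +N libraries. *OlASADH* (OL03G003219), aspartate semialdehyde dehydrogenase, had 92.6, 83.7 and 85.2 CPM in −N libraries, against 162, 193 and 165 CPM in +N libraries. *OlAK-HSDH1* (OL08G000963), a fused aspartate kinase and homoserine dehydrogenase, had 88.0, 95.1 and 98.3 CPM in −N libraries, against 131, 154 and 136 CPM in +N libraries. In all 3 genes the groups did not overlap, and the log2 fold changes were −1.02 ± 0.18 (SE, adjusted p = 0.00199), −0.99 ± 0.10 (SE, adjusted p = 3.97e-05) and −0.58 ± 0.12 (SE, adjusted p = 0.00497). A second fused enzyme, OL09G000328, which was chosen after its values were seen, had −1.64 ± 0.13 (SE, adjusted p = 8.74e-06). The exceptions in this list were OL05G001805, OL05G001819 and OL05G001820, 3 closely numbered class III aminotransferases, a class that acts on amino groups away from the alpha carbon. They rose, with log2 fold changes of 1.36, 1.35 and 1.24, and were named after their values were seen. The first of them, OL05G001805, had 53.4, 31.4 and 46.4 CPM in −N libraries, against 13.7, 22.7 and 14.5 CPM in +N libraries. −N replicate 2 was the lowest −N library there and still above all +N libraries.

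All 9 genes of aromatic amino acid synthesis were lower in −N roots, with and without −N replicate 1, and their log2 fold changes lay between −1.74 and −0.43. The study had listed all 9 as lower in −N, so their direction was fixed by that choice. The alpha chain of tryptophan synthase (OL07G000511), which with the beta chain makes the final step to tryptophan, had 45.5, 47.3 and 47.3 CPM in −N libraries, against 188, 134 and 145 CPM in +N libraries. The beta chain OL08G000202 had 88.1, 90.2 and 125 CPM in −N libraries, against 251, 244 and 219.7 CPM in +N libraries. The changes were −1.74 ± 0.12 (SE, adjusted p = 3.06e-06) and −1.24 ± 0.14 (SE, adjusted p = 9.10e-05). At the entry to the pathway, the DAHP synthetase OL07G002124 changed by less, at −0.43 ± 0.10 (SE, adjusted p = 0.0104).

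Sulfur assimilation showed the lowest median of the 18 lists, at −1.48 on the log2 scale. This pathway reduces sulfate to sulfide, which joins an activated serine to give cysteine. Of its 9 members, shown whole after their values were seen, 8 were lower in −N roots and 1 higher, with the same counts without −N replicate 1. The study had listed 8 of them as lower in −N and 1 as higher, so these directions were fixed by that choice. OL07G001411, of the phosphoadenosine phosphosulfate reductase family that reduces activated sulfate, had 21.9, 24.8 and 21.6 CPM in −N libraries, against 229.7, 154 and 216 CPM in +N libraries. Sulfite reductase OL05G002004, the next enzyme, had 65.0, 70.2 and 63.9 CPM in −N libraries, against 192, 179 and 184 CPM in +N libraries. The first fell by 3.13 ± 0.20 (SE, adjusted p = 2.64e-06) and the second by 1.48 ± 0.08 (SE, adjusted p = 1.09e-06) on the log2 scale, and a neighbouring reductase of the first kind, OL07G001412, fell by 3.42 ± 0.20 (SE, adjusted p = 1.15e-06). The second sulfite reductase model, OL05G002017, had nearly the same values, with a log2 fold change of −1.45, and near-identical models could share reads.

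Cysteine synthase and sulfate uptake fell as well. Cysteine synthase OL04G000224, which joins sulfide to acetylserine, had 34.9, 42.5 and 38.2 CPM in −N libraries, against 105, 93.9 and 147 CPM in +N libraries. The sulfate transporter family member OL09G000110 had 42.8, 42.2 and 40.1 CPM in −N libraries, against 95.7, 79.9 and 96.8 CPM in +N libraries. Their log2 changes were −1.58 ± 0.18 (SE, adjusted p = 9.98e-05) and −1.12 ± 0.11 (SE, adjusted p = 3.80e-05). The serine acetyltransferases OL03G000668 and OL05G002213, which activate serine for this step, had −2.76 and −0.60. The single gene that rose, OL03G000706, is described as making activated sulfate, the step before reduction, and had 0.62 ± 0.11 (SE, adjusted p = 0.00254).

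Most described members of glycolysis, which turns hexose phosphates into pyruvate, fell. The study had listed 29 of the 39 as lower in −N and 2 as higher, so their direction was largely fixed by that choice. Of the 8 members in neither of those lists, 2 were called lower and none higher. Of 39 members, 27 were lower in −N roots (69.2%) and 2 higher, the median log2 fold change was −0.72, and 25 and 2 were called without −N replicate 1. The summed level of the list was 11210 to 12670 CPM in −N libraries and 19230 to 22420 CPM in +N libraries. The 10 members described with the word phosphofructokinase, an enzyme that commits hexose phosphate to the pathway, had 7 lower and none higher. A pyrophosphate-dependent phosphofructokinase described in other words, OL02G002860, is not among these 10 and rose, as given below. Phosphofructokinase OL05G000593 had 21.1, 11.6 and 21.3 CPM in −N libraries, against 88.4, 112 and 83.9 CPM in +N libraries. The log2 change was −2.40 ± 0.21 (SE, adjusted p = 2.11e-05), and that of phosphofructokinase OL09G000356 was −1.45 ± 0.13 (SE, adjusted p = 2.11e-05). In contrast, *OlPFK5* (OL05G002151), *OlPFPB* (OL06G000911) and *OlPFP1α3* (OL08G000976), which carry names in the tables and act at the same step, had −0.21, −0.34 and −0.31 and were not called (adjusted p = 0.470, 0.0789 and 0.179).

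*OlGAPC1* (OL02G002091), the cytosolic glyceraldehyde-3-phosphate dehydrogenase, had 2100, 1931 and 2295 CPM in −N libraries, against 4223, 4742 and 3914 CPM in +N libraries. The aldolase *OlALDC1* (OL01G004030) had 1470, 1266 and 1624 CPM in −N libraries, against 2985, 3446 and 3099 CPM in +N libraries. *OlGPI* (OL03G003308), which turns glucose 6-phosphate into fructose 6-phosphate, had 165, 148 and 158 CPM in −N libraries, against 314, 342 and 279 CPM in +N libraries. No library of −N reached the lowest +N value in any of these 3 genes, and the log2 fold changes were −1.03 ± 0.16 (SE, adjusted p = 0.00105), −1.13 ± 0.15 (SE, adjusted p = 0.000331) and −0.99 ± 0.10 (SE, adjusted p = 6.70e-05). Enolase *OlENO1* (OL10G000304) and triosephosphate isomerase *OlTPI1* (OL01G000318) fell by 0.67 ± 0.10 (SE, adjusted p = 0.000679) and 0.62 ± 0.11 (SE, adjusted p = 0.00196). An aldolase with far fewer reads, OL08G000134, showed the lowest log2 fold change of the list at −3.35 ± 0.43 (SE, adjusted p = 0.000262) and was named after its values were seen. The 2 members that rose were also named so, the pyruvate kinase OL01G002472 at 0.71 and OL02G002860, a pyrophosphate-dependent phosphofructokinase, at 0.83.

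The list of the phosphoenolpyruvate node and the citrate cycle fell as well, with exceptions. Its direction too was largely fixed by the study's choice, which had 18 of the 24 as lower in −N and 3 as higher. Of its 24 members, 18 were lower in −N roots and 2 higher, with 16 and 2 without −N replicate 1 and only 1 higher without −N replicate 2 or +N replicate 2 or 3. Phosphoenolpyruvate carboxykinase OL03G001047, which releases phosphoenolpyruvate from oxaloacetate, had 1149, 1088 and 902 CPM in −N libraries, against 4915, 5003 and 4465 CPM in +N libraries. It fell by 2.20 ± 0.14 (SE, adjusted p = 2.52e-06) with no overlap. All 3 phosphoenolpyruvate carboxylases, which run in the other direction and feed oxaloacetate to the citrate cycle and to aspartate, fell too, by 1.28 for *OlPPC4* (OL01G000707), 1.15 for OL02G000950 and 0.93 for the third member. *OlPPDKA* (OL03G002044), a pyruvate phosphate dikinase, had 1521, 1325 and 2293 CPM in −N libraries, against 1209, 1946 and 1419 CPM in +N libraries. These overlapped, with a log2 fold change of 0.17 ± 0.31 (SE, adjusted p = 0.766). Another dikinase, OL05G001417, named after its values were seen, had 886, 708 and 745 CPM in −N libraries, against 1821, 2052 and 1628 CPM in +N libraries. That gene fell by 1.23 ± 0.17 (SE, adjusted p = 0.000446).

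The pentose phosphate pathway and ferredoxin reduction, which supply reductant to GOGAT and to nitrite and sulfite reduction in roots, had 7 of 10 members lower and none higher. This count was 6 without −N replicate 1, 4 without −N replicate 2 and 3 without +N replicate 3. Of the 10, 8 were in the study's list of genes lower in −N. The root isozyme of ferredoxin-NADP reductase (OL03G003355) had 53.9, 55.5 and 51.4 CPM in −N libraries, against 87.7, 71.7 and 77.1 CPM in +N libraries. The transketolase OL07G000442 had a log2 fold change of −1.08 ± 0.20 (SE, adjusted p = 0.00248), the reductase −0.56 ± 0.09 (SE, adjusted p = 0.000939) and the transaldolase OL01G004184 −0.45 ± 0.13 (SE, adjusted p = 0.0295). Without +N replicate 1 or 3, or −N replicate 2 or 3, the transaldolase was no longer called (adjusted p of 0.0648 to 0.106).

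Most described genes of sucrose and trehalose metabolism fell. Of these 19, the study had listed 15 as lower in −N and 1 as higher, so the direction was largely fixed by that choice. Of 19 members for sucrose and trehalose, 14 were lower and 2 higher, and 12 and 2 without −N replicate 1. Among them 5 of 7 trehalose-phosphatases were lower and 1 higher, with 3 lower without −N replicate 2 or +N replicate 3. The trehalose-phosphatases OL07G002137 and OL08G001191, which free the sugar from its phosphate, had log2 fold changes of −1.57 ± 0.14 (SE, adjusted p = 2.87e-05) and −1.41 ± 0.14 (SE, adjusted p = 3.99e-05). Sucrose synthase OL06G000607, which cleaves sucrose to UDP-glucose and fructose, had 1378, 1157 and 1460 CPM in −N libraries, against 1678, 1926 and 1837 CPM in +N libraries. A second sucrose synthase, OL03G001901, had 2095, 1543 and 1696 CPM in −N libraries, against 1966, 1624 and 1412 CPM in +N libraries. Neither was called, with log2 fold changes of −0.45 ± 0.16 (SE, adjusted p = 0.0708) and 0.09 ± 0.15 (SE, adjusted p = 0.730). The first was lower without overlap and was called in 5 of 20 alternatives, among them the replicate block (adjusted p = 0.0270) and the fit to the 6 libraries only (0.0387), over a range of 0.0189 to 0.219. Of 13 members for fermentation and low oxygen, 8 were lower and 1 higher (6 and 0 without −N replicate 1, 4 and 0 without −N replicate 2 or 3 or +N replicate 2), and the alcohol dehydrogenases with most reads were not called. The alcohol dehydrogenase unmappedContigsG000545 had 2608, 2100 and 2863 CPM in −N libraries, against 2369, 2981 and 2238 CPM in +N libraries. This gave a log2 change of −0.003 ± 0.19 (SE, adjusted p = 0.993), and that of the other strongly read one, OL11G000556, was 0.32 ± 0.21 (SE, adjusted p = 0.345). Calls came from other members, such as OL04G000788 at −1.33 ± 0.29 (SE, adjusted p = 0.00705) and OL08G000065 at −0.89 ± 0.16 (SE, adjusted p = 0.00215).

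Of 33 amino acid and peptide transporters, 18 were lower (54.5%) and 10 higher (30.3%), close to the shares of all described genes, and 15 and 8 were called without −N replicate 1. OL01G003886, described as an amino acid transporter, had 22.4, 30.5 and 25.1 CPM in −N libraries, against 7.48, 5.36 and 5.16 CPM in +N libraries. OL02G002697, of the POT family of peptide and nitrate carriers, had 7.07, 10.3 and 8.31 CPM in −N libraries, against 1.63, 1.30 and 1.85 CPM in +N libraries. These had the smallest p of the list, with log2 fold changes of 2.12 ± 0.18 (SE, adjusted p = 1.82e-05) and 2.42 ± 0.20 (SE, adjusted p = 1.65e-05). The gene with the largest decrease, OL01G003496, a transmembrane amino acid transporter named after its values were seen, had 17.8, 11.2 and 16.4 CPM in −N libraries, against 102, 77.0 and 112 CPM in +N libraries. The fitted log2 change was −2.69 ± 0.25 (SE, adjusted p = 2.87e-05). The members with most reads, the permease OL01G002173 and the neutral amino acid transporter OL06G002030, rose by 0.39 ± 0.12 (SE, adjusted p = 0.0322) and 0.53 ± 0.15 (SE, adjusted p = 0.0258). The first call was lost without −N replicate 2 or 3 or +N replicate 1 or 3 (adjusted p up to 0.111), and the second without −N replicate 1 or 3 or +N replicate 1 (up to 0.0786).

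Phosphate, potassium and metal transport fell in 14 of 21 members and rose in 1 (12 and 1 without −N replicate 1, 9 and 1 without +N replicate 2). Of the 21, 15 were in the study's list of genes lower in −N and 1 in its list of higher ones. OL04G002064, a membrane protein with an SPX domain, which senses phosphate status in plants, had 2.29, 4.58 and 2.61 CPM in −N libraries, against 21.2, 26.0 and 17.0 CPM in +N libraries. The high-affinity potassium transporter OL06G002472 had 50.4, 55.4 and 50.9 CPM in −N libraries, against 116, 154 and 126 CPM in +N libraries. Both fell without overlap, with log2 fold changes of −2.74 ± 0.34 (SE, adjusted p = 0.000219) and −1.34 ± 0.14 (SE, adjusted p = 5.63e-05). The potassium transporter OL07G002468 fell by 0.83 ± 0.16 (SE, adjusted p = 0.00357), and 5 of 7 zinc transporters were lower, against 3 without −N replicate 1, 2 without −N replicate 2 and 1 without −N replicate 3 or +N replicate 2 or 3.

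Against this fall in metabolic genes stood a rise of genes for dividing cells and the microtubule skeleton. Of 59 members, 50 were higher in −N roots (84.7%) and none lower, with a median log2 fold change of 0.63, and 40 were higher without −N replicate 1 and 35, the lowest count, without −N replicate 2. The summed level was 8299 to 9294 CPM in −N libraries and 4910 to 6545 CPM in +N libraries, without overlap. For 58 of these 59 genes the description comes from a supplementary table of genes that rose, so the direction was fixed by that choice. In bulk RNA, fewer cells of a type and less RNA per cell cannot be told apart, and the part of dividing cells in the other results was not tested.

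All 7 described tubulins, the subunits of microtubules, rose, as did all 7 described CLASP proteins and all 5 described MAP65 proteins, which stabilise and bundle them. Of 12 described kinesins, the motors that run on microtubules, 11 rose. As said above, the study's choice of genes that rose fixed these directions. Without −N replicate 1, 6 tubulins, 6 CLASP proteins, 4 MAP65 proteins and 11 kinesins were called higher. Tubulin OL03G002995 had 2943, 2721 and 2528 CPM in −N libraries, against 1917, 1609 and 1373 CPM in +N libraries. Tubulin OL03G002560 had 312, 348 and 309.7 CPM in −N libraries, against 162, 132 and 119 CPM in +N libraries. The log2 changes were 0.74 ± 0.11 (SE, adjusted p = 0.000863) and 1.24 ± 0.11 (SE, adjusted p = 2.30e-05), and the highest +N library, replicate 1 in both, stayed below the lowest −N library. Tubulins OL01G001154 and OL01G003369 had 0.67 ± 0.11 (SE, adjusted p = 0.00145) and 0.95 ± 0.10 (SE, adjusted p = 6.43e-05). The kinesin with the largest change, OL01G001028, had 1.46 ± 0.16 (SE, adjusted p = 7.94e-05).

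Of 6 cyclins, the activators of the cell cycle kinases, 4 rose, and 2 of 3 MCM proteins, which form the replicative helicase, rose as well. The MCM gene OL05G001809 had 45.0, 62.1 and 52.7 CPM in −N libraries, against 38.2, 31.4 and 30.6 CPM in +N libraries. Cyclin OL02G002450 had 2.90, 3.92 and 2.28 CPM in −N libraries, against 1.08, 1.20 and 1.22 CPM in +N libraries. Histone H2A OL03G000435 had 56, 60.2 and 48.7 CPM in −N libraries, against 45.2, 32.8 and 28.4 CPM in +N libraries. These 3 and the kinesin above were named after their values were seen, and their log2 fold changes were 0.67 ± 0.13 (SE, adjusted p = 0.00347), 1.38 ± 0.40 (SE, adjusted p = 0.0304) and 0.63 ± 0.16 (SE, adjusted p = 0.0150). The MCM gene was called under every alternative tried. The cyclin was not called without −N replicate 1 or 2 or any of the +N replicates (adjusted p up to 0.111), nor the histone without −N replicate 2 or +N replicate 2 or 3 (up to 0.0578). Of 7 core histones 4 were called higher, against 1 without −N replicate 1, none without −N replicate 2 or +N replicate 2 or 3, and 7 without +N replicate 1.

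**Figure D3:**
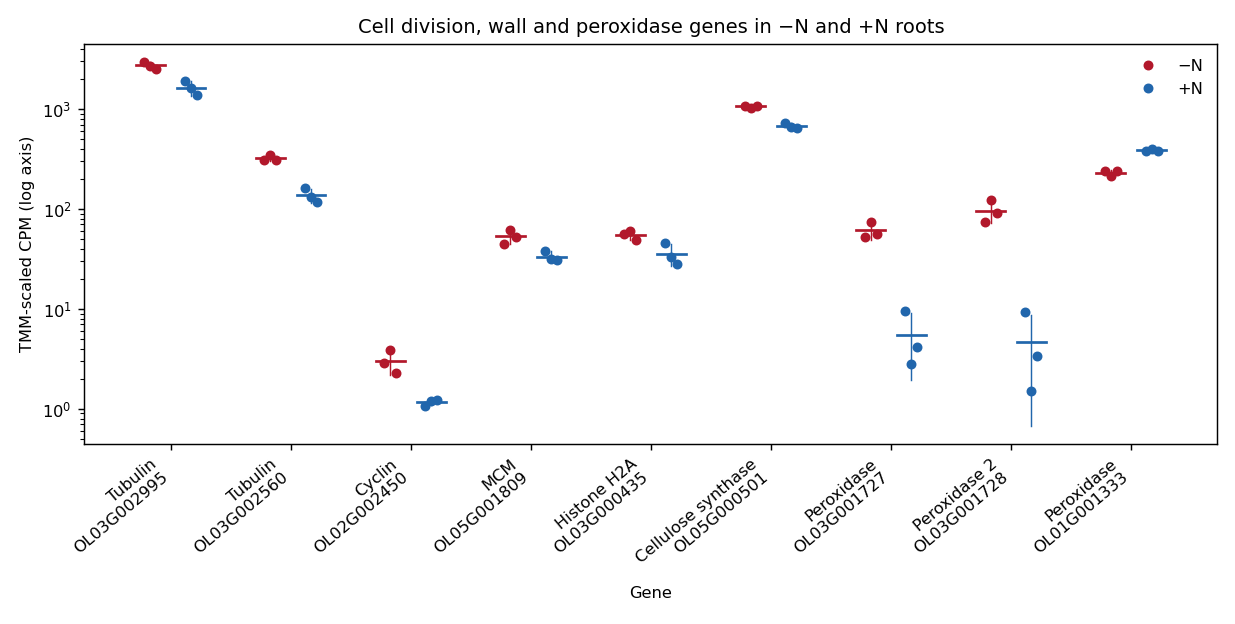
TMM-scaled CPM (log axis) of 9 cell division, cell wall and peroxidase genes in the 3 −N libraries (red, left) and the 3 +N libraries (blue, right), with the mean as a horizontal line and the SD as a vertical one. The tubulins and cellulose synthase lie higher in −N with no overlap, peroxidases OL03G001727 and OL03G001728 lie far higher, and peroxidase OL01G001333 lies lower.

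Cell wall genes went both ways. Of 29 members, 13 were higher (44.8%) and 9 lower (31.0%), against 10 and 5 without −N replicate 1, 8 and 5 without −N replicate 2, 7 and 7 without +N replicate 2 and 6 and 5 without +N replicate 3. All 3 catalytic subunits of cellulose synthase, which spins the cellulose fibrils of the wall, rose. Cellulose synthase OL05G000501 had 1080, 1023 and 1077 CPM in −N libraries, against 733, 655 and 642 CPM in +N libraries. The change was 0.65 ± 0.08 (SE, adjusted p = 0.000208), that of OL01G003040 was 0.83 ± 0.15 (SE, adjusted p = 0.00295), and the xyloglucan transglycosylase OL03G003863, which reconnects wall polymers, had 0.71 ± 0.08 (SE, adjusted p = 0.000118). Of 10 pectinesterases, which remove methyl groups from pectin, 5 were lower and 2 higher, near the shares of all described genes. With −N replicate 1 or +N replicate 2 left out, 4 were lower and none higher. The pectinesterase with the smallest p, OL01G001275, had 71.5, 68.5 and 76.2 CPM in −N libraries, against 254, 199.8 and 251 CPM in +N libraries. Its log2 change was −1.71 ± 0.18 (SE, adjusted p = 6.37e-05), with no overlap.

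The class III peroxidases, secreted enzymes that act on the wall and on hydrogen peroxide, held the largest increases of the 18 lists. Of 48 members, 20 were higher (41.7%) and 15 lower (31.2%), with log2 fold changes from −1.40 to 4.37, and 16 and 10 were called without −N replicate 1. Peroxidase 2 OL03G001728 had 74.8, 123 and 91.9 CPM in −N libraries, against 9.23, 1.49 and 3.40 CPM in +N libraries. Its neighbour OL03G001727 had 52.9, 74.7 and 55.6 CPM in −N libraries, against 9.54, 2.80 and 4.20 CPM in +N libraries. Peroxidase 2 OL05G000248 had 51.7, 90.5 and 65.4 CPM in −N libraries, against 8.56, 1.47 and 6.33 CPM in +N libraries. These 3 had the largest increases of all called genes with a mean of at least 5 CPM, with log2 fold changes of 4.37 ± 0.50 (SE, adjusted p = 0.000127), 3.48 ± 0.34 (SE, adjusted p = 4.64e-05) and 3.67 ± 0.53 (SE, adjusted p = 0.000619). In each of them +N replicate 2 was the lowest and +N replicate 1 the highest of the +N libraries, both well below −N. Without +N replicate 1 the first 2 log2 fold changes were 5.29 and 4.12. Other peroxidases fell, such as OL01G001333 at −0.75 ± 0.11 (SE, adjusted p = 0.000553) and its neighbour OL01G001332 at −1.04 ± 0.11 (SE, adjusted p = 6.42e-05). The adjusted p of peroxidase OL04G002901 lay just above the threshold, with a log2 change of −0.40.

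Described proteases rose and fell in near equal number, 9 and 10 of 21, but by family. The study had listed 9 of the 21 as higher in −N and 10 as lower, so these counts repeat its choice. All 3 described subtilases, which are secreted serine proteases, and all 3 described SAG39-like cysteine proteases, named for their link to senescence, rose. All 3 described proteasome subunits fell. Without −N replicate 1, 3 subtilases, 1 SAG39-like protease and 2 proteasome subunits were called, and 1 SAG39-like protease also without +N replicate 1 or 3. Subtilase OL02G000697 had 68.8, 80.4 and 79.3 CPM in −N libraries, against 28.9, 14.6 and 16.0 CPM in +N libraries. The SAG39-like protease OL01G001434, chosen after its values were seen, had 248, 215 and 209 CPM in −N libraries, against 121, 148 and 85.6 CPM in +N libraries. The fitted changes were 1.94 ± 0.23 (SE, adjusted p = 0.000133) and 0.92 ± 0.18 (SE, adjusted p = 0.00375). The cathepsin B-like OL05G000965 fell by 0.40 ± 0.07 (SE, adjusted p = 0.00201), and of the aspartyl proteases OL02G001476 fell by 1.09 ± 0.13 (SE, adjusted p = 0.000157) and OL09G001263 by 1.15 ± 0.21 (SE, adjusted p = 0.00264).

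Of 156 transcription factor genes, 95 were lower (60.9%) and 27 higher (17.3%), beside 47.0% and 23.7% of described genes. These directions were largely fixed by the study's choice, which had 102 of the 156 as lower in −N and 29 as higher. Without −N replicate 1, 84 and 19 were called. Of 16 WRKY factors, a family known for stress and defence responses, 13 were lower and none higher, although 1 of the others had an unadjusted p under 0.05 with a higher level and was called by DESeq2's Wald test. Of 20 NAM (NAC) factors, 14 were lower and 4 higher, against 12 and 3 without −N replicate 1. Of 37 Myb factors, 19 were lower and 8 higher, near the shares of all described genes, against 18 and 6 without −N replicate 1 and 19 and 4 without +N replicate 2. The DUF260 domain is that of the LOB family, some of whose members repress nitrogen genes in *Arabidopsis thaliana*, and 4 of its 5 members were lower, with a median log2 fold change of −2.50 (3 were called lower when −N replicate 1 or +N replicate 2 was left out). Among them, OL03G002099 had 2.57, 1.98 and 2.15 CPM in −N libraries, against 18.0, 22.8 and 18.9 CPM in +N libraries. NLP6 (OL02G000272), of the NIN-like proteins, which act in nitrate responses in *A. thaliana*, had 4.5, 4.07 and 4.28 CPM in −N libraries, against 18.4, 20.6 and 23.6 CPM in +N libraries. Their changes were −3.16 ± 0.22 (SE, adjusted p = 3.93e-06) and −2.28 ± 0.13 (SE, adjusted p = 1.09e-06), and the NAM factor OL11G000463 had −1.93 ± 0.12 (SE, adjusted p = 2.52e-06).

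The factors with most reads were a Myb-like and an AP2 gene. The Myb-like OL01G004546 had 413, 653 and 553 CPM in −N libraries, against 139, 148 and 258 CPM in +N libraries. The AP2 gene OL03G000575 had 474, 387 and 493 CPM in −N libraries, against 323, 404 and 325 CPM in +N libraries. Their log2 changes were 1.57 ± 0.31 (SE, adjusted p = 0.00373) and 0.36 ± 0.11 (SE, adjusted p = 0.0433). The AP2 call was lost in 11 of 20 alternatives, among them the fit to the 6 libraries only and those without −N replicate 1 or 3 or +N replicate 1 or 3 (adjusted p of 0.0966 to 0.141), and −N replicate 2 lay below +N replicate 2. The Myb-like gene was called in all of them.

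Of 132 protein kinases, 51 were lower (38.6%) and 44 higher (33.3%), beside 47.0% and 23.7% of described genes. Without −N replicate 1, 40 and 34 were called. On chromosomes 1 to 5, up to the last gene read in the study's list of genes higher in −N, 43 of 93 were higher and 29 lower. Of described genes on the whole of these chromosomes, 30.7% were higher and 42.3% lower. The kinase CDL1 OL09G001810 had 4.07, 2.84 and 2.90 CPM in −N libraries, against 33.5, 43.6 and 30.1 CPM in +N libraries. The kinase STY46 OL02G000139 had 36.3, 36.3 and 50.6 CPM in −N libraries, against 181, 135 and 171 CPM in +N libraries. Both fell, with log2 fold changes of −3.46 ± 0.22 (SE, adjusted p = 2.65e-06) and −1.98 ± 0.15 (SE, adjusted p = 8.36e-06). CBL-interacting protein kinase 23 (OL07G000304), which in *A. thaliana* regulates nitrate, potassium and ammonium transporters, had 634, 642 and 632 CPM in −N libraries, against 856, 948 and 822 CPM in +N libraries. Its change was small, at −0.46 ± 0.08 (SE, adjusted p = 0.00207). The kinase of the SNF1-related family with most reads, OL03G001268, had −0.12 ± 0.09 (SE, adjusted p = 0.404) and was not called.

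Markers of green tissue were used to check the label of the samples as roots. The 28 genes for photosystems and chlorophyll binding summed to 1539, 2231 and 2246 CPM in −N libraries and to 2469, 3224 and 2824 CPM in +N libraries, so their transcripts were present in every library and the sums did not overlap. Only 2 were called, both lower, the PsbP gene OL01G004241 and the photosystem II protein OL05G002026, with log2 fold changes of −2.02 ± 0.45 (SE, adjusted p = 0.00777) and −0.48 ± 0.11 (SE, adjusted p = 0.00762). The first was −1.03 without +N replicate 2. By contrast, 18 of the 28 were in the study's list of genes lower in −N, and the median log2 fold change was −0.54. In 20 of the 28, all −N values lay on one side of all +N values. The number called thus differed between the study's test and the one used here, and 2 calls do not show that levels were equal in the groups. Of the 12 chlorophyll a-b binding proteins edgeR's quasi-likelihood test and DESeq2 called none, and 1 had an unadjusted p under 0.05 with a lower level. OL01G002114, one of the 2 chlorophyll a-b binding proteins with most reads, had 277, 393 and 435 CPM in −N libraries, against 448, 607 and 558 CPM in +N libraries. The log2 change was −0.55 ± 0.43 (SE, adjusted p = 0.427), and that of the other, OL01G002860, was −0.25 ± 0.43 (SE, adjusted p = 0.746). Only edgeR's exact test, of 20 alternatives, called OL01G002114 (adjusted p = 0.0211). The part of green tissue in the other results was not tested.

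Ranked by p, the top genes with no overlap stood mostly outside the lists above. OL04G002843, of the amidohydrolase family, enzymes that cleave carbon-nitrogen bonds, had 90.5, 94.7 and 96.4 CPM in −N libraries, against 20.5, 24.1 and 18.7 CPM in +N libraries. It rose by 2.15 ± 0.09 (SE, adjusted p = 1.91e-07), the smallest p among genes that rose without overlap. The universal stress protein OL01G000457 had 8.59, 9.18 and 9.17 CPM in −N libraries, against 46.0, 47.3 and 42.4 CPM in +N libraries. It fell by 2.33 ± 0.08 (SE, adjusted p = 4.72e-08), with a spread within groups of under 5 CPM.

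Next to them among the increases were OL03G000065, a remorin, which is a plasma membrane scaffold protein, OL04G002497, a hypothetical protein, and OL08G001602, OL10G000033 and OL11G000421, which have no description in the tables read. The remorin OL03G000065 had 108, 113 and 90.4 CPM in −N libraries, against 33.6, 29.9 and 25.3 CPM in +N libraries. OL11G000421 had 52.2, 49.4 and 47.3 CPM in −N libraries, against 8.68, 4.82 and 6.85 CPM in +N libraries. Their changes were 1.81 ± 0.13 (SE, adjusted p = 3.93e-06) and 2.87 ± 0.20 (SE, adjusted p = 3.91e-06), and those of OL04G002497, OL08G001602 and OL10G000033 were 2.18, 1.38 and 1.72. Among the decreases were OL05G000108, which has no description in the tables read, and OL01G002266, described as of unknown function, at −2.35 and −2.26.

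The 3 largest decreases among called genes with a mean of at least 5 CPM had most of their +N reads in a single library. The late embryogenesis abundant protein OL05G002279, of a class made in drying seeds and under water stress, had 0.305, 0.136 and 0.088 CPM in −N libraries, against 45.3, 844 and 8.62 CPM in +N libraries. The read counts behind these were 12, 8 and 4 in −N libraries, against 1890, 39555 and 466 in +N libraries. The log2 fold change of −10.78 ± 2.14 (SE, adjusted p = 0.00419) became −7.29 without +N replicate 2 (adjusted p = 0.00637). The undescribed unmappedContigsG001009 had the same profile, with 4, 6 and 4 reads in −N libraries and 618, 12340 and 136 reads in +N libraries. This gave a log2 change of −9.87 ± 2.04 (SE, adjusted p = 0.00526), and −6.42 without +N replicate 2. OL11G000960 had 0 reads in all 3 −N libraries and 535, 2025 and 18 reads in +N libraries, a level at least 900-fold lower in −N when 3 reads over the group are taken as the limit for a count of 0, and at least 315-fold lower without +N replicate 2. Its call was lost without +N replicate 2 (adjusted p = 0.0706) or without any of the −N replicates (0.0695 to 0.0770).

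Of the 10 genes that took most reads in these 6 libraries, 3 were described above, phosphoenolpyruvate carboxykinase, *OlGAPC1* and the alcohol dehydrogenase unmappedContigsG000545. Phenylalanine ammonia-lyase OL02G002286, which opens the phenylpropanoid pathway and frees ammonium, had 8768, 6391 and 9009 CPM in −N libraries, against 4929, 4652 and 5737 CPM in +N libraries. It rose by 0.66 ± 0.17 (SE, adjusted p = 0.0170) but was not called without −N replicate 1 or 3 or +N replicate 2 (adjusted p of 0.0603 to 0.0624). OL05G000254, which makes S-adenosylmethionine, rose by 0.41 ± 0.12 (SE, adjusted p = 0.0337) and was called without −N replicate 2 but not without any other of the 6 libraries (up to 0.112), and OL04G002661, described only as plasma membrane, fell by 0.52 ± 0.12 (SE, adjusted p = 0.0109). OL03G000543, OL11G000355 and OL12G001690, which have no description, and OL11G000888, with a plastocyanin-like domain, were not called, with log2 fold changes of 0.07, −0.04, 0.25 and −0.14.

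Split pairs make it possible to ask whether a root that lacks ammonium together with its partner differs from +N roots in the same genes as the −N split side differs from its supplied partner. The 2 comparisons share no library. Across the 25005 genes, which are not independent replicates, the log2 changes had a Pearson correlation of 0.493 and a Spearman correlation of 0.524. Between split sides 8084 genes were called (32.3%). Of the 2211 genes higher in −N, 1527 were also higher in −N split than in +N split and 89 lower, and of the 2587 genes lower in −N, 1477 were also lower in −N split and 42 higher. The difference of both changes itself was called for 1397 genes (5.59%), 911 of them with a more positive change in uniform pairs (3.64%) and 486 with a more negative one (1.94%). Without −N replicate 1, 944 were called, and the lowest count without a library was 910, without −N replicate 3.

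**Figure D4:**
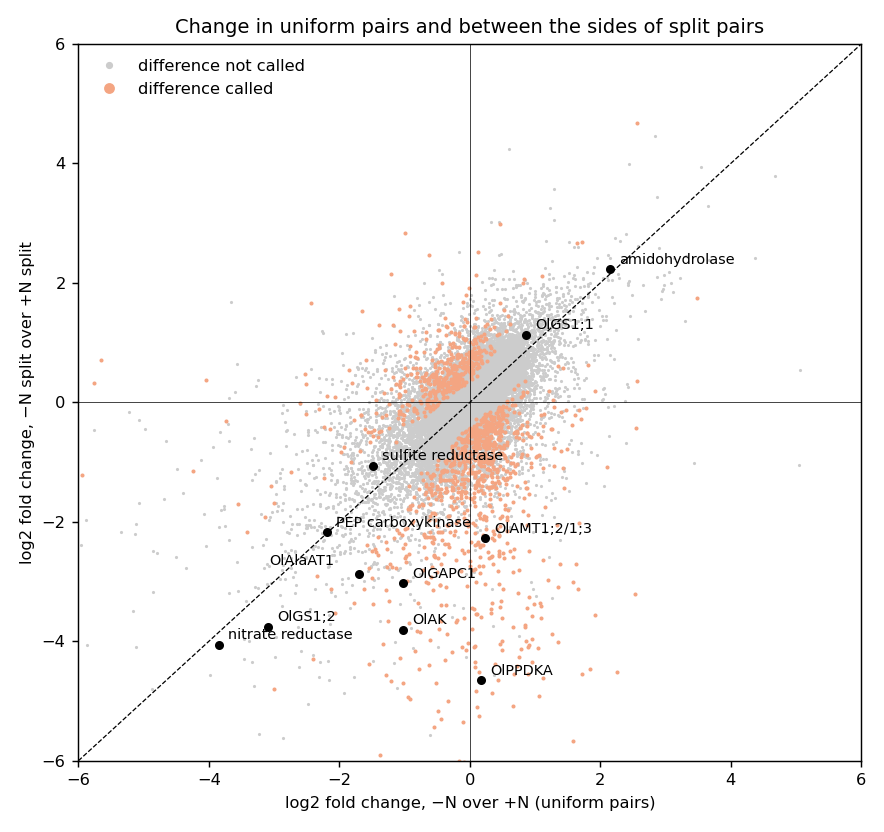
Log2 fold change of −N over +N roots (x axis) against −N split over +N split roots (y axis) for each gene, with genes whose difference was called in orange, equal change as a dashed line and named genes in black. 16 genes lie outside the axes. Nitrate reductase, phosphoenolpyruvate carboxykinase and the amidohydrolase lie near the dashed line, and *OlPPDKA*, *OlAK* and *OlAMT1;2/OlAMT1;3* lie far below it.

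Some of the genes with small p showed no called difference between the designs. Nitrate reductase OL02G003220 had log2 changes of −3.85 in uniform pairs and −4.06 in split pairs (adjusted p of the difference 0.745), phosphoenolpyruvate carboxykinase OL03G001047 −2.20 and −2.17 (0.962), and the amidohydrolase OL04G002843 2.15 and 2.23 (0.776). For *OlGS1;2* the values were −3.09 and −3.76 (0.119), and for *OlGS1;1* 0.86 and 1.13 (0.353). A p above the threshold does not show that these changes are equal.

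Other genes of carbon and amino acid metabolism changed far less in uniform than in split pairs. The study reported most genes with an *Ol* name as higher in +N split than in +N roots. That choice favours a positive difference, so the signs of these genes are not independent evidence. *OlPPDKA* (OL03G002044) had a log2 change of 0.17 in uniform pairs and −4.65 in split pairs (difference 4.82 ± 0.46, adjusted p = 0.00012). *OlNADH-GOGAT2* (OL05G002363) had −3.59 and −7.90 (difference 4.31 ± 0.50, adjusted p = 0.000358). *OlAK* (OL03G003830) had −1.02 and −3.81 (difference 2.79 ± 0.25, adjusted p = 8.47e-05), and the ammonium transporter model OL02G002258 had 0.23 and −2.27 (difference 2.50 ± 0.43, adjusted p = 0.00470). In glycolysis 16 of 39 members differed in this way or the other, in the aminotransferase list 15 of 29, in cell division 1 of 59 and in aromatic amino acid synthesis none of 9, beside 19.7% of all described genes.

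Cysteine synthase, a phosphosulfate reductase and an asparagine synthetase showed a larger decrease in uniform than in split pairs. Of the 9 members of the sulfur list 4 had a called difference, 3 with a more negative change in uniform pairs, while the serine acetyltransferase OL05G002213 lay the other way, with a difference of 0.87 ± 0.20, adjusted p = 0.0237. Cysteine synthase OL04G000224, with a log2 change of −1.58 in uniform pairs, had 83.7, 84.5 and 57.3 CPM in −N split roots, against 61.5, 68.2 and 61.4 CPM in +N split roots. These overlapped, and the difference of the changes was −1.82 ± 0.25, adjusted p = 0.00101. The phosphosulfate reductase OL07G001411 had log2 changes of −3.13 in uniform and −1.93 in split pairs (difference −1.21 ± 0.26, adjusted p = 0.0185), and asparagine synthetase OL03G001277 −2.24 and −1.27 (difference −0.97 ± 0.25, adjusted p = 0.0417). These genes were chosen after their values were seen.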

How the data were processed

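Roots of 12 ramet pairs or pair sides gave 1 library each, in 4 groups of 3 assigned by sample title, and the −N and +N groups are compared here. Libraries were made from mRNA with a TruSeq kit, sequenced on a NovaSeq instrument, mapped with HISAT2 to the *O. longistaminata* genome and counted per gene model with featureCounts. For these tools the version is not given in the sources used here, nor are strand setting and use of read pairs. The authors deposited these counts without normalization, and also log2 CPM values that equal log2 CPM recomputed from the counts with a prior count of 2, within 5e-09, which were not used further.

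Counts were tested with edgeR 4.0.16 in R 4.3.3 (filterByExpr with a minimum count of 10 and a total of 15, TMM factors, quasi-likelihood test with 1 mean per group over all 12 libraries, 8 residual degrees of freedom, Benjamini-Hochberg adjustment over 25005 genes). Alternatives were DESeq2 1.42.0 size factors and Wald test, other filters, the 6 libraries alone, edgeR's exact test, a replicate block, leaving out each library, stricter thresholds and, chosen after seeing the data, library totals. Counts for −N and +N were also simulated for 24848 genes, of which 200 were changed. Of the 2-fold changes 63% and of the 4-fold changes 93% were recovered, and 4.29% of 163 calls were unchanged genes. In the data a far larger share was called, 19.2%, so these rates may not hold there. With 3 against 3 libraries an exact permutation test of a single value cannot go below 0.1, so none was run.

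Functions and the 18 lists come from descriptions in the study's supplementary tables, matched by gene number, of which only the genes and descriptions were used. Named genes were the 6 called genes with the smallest p and the 3 with the largest change in each direction, those with a name in the tables, the 2 with most reads and the 2 with the smallest p of each list, and the 10 with most reads. Any other gene was chosen after its values were seen. The members and lists were chosen with earlier results of these data known. No sequences or coordinates were used here.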

Additional observations from a re-analysis of the deposited data

Results flagged for a closer look

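For 49 of the named genes the change in uniform pairs differed from the change between the sides of split pairs, by edgeR's test of the difference itself (adjusted p under 0.05). Values are the log2 change of −N over +N minus that of −N split over +N split, so a positive value means a change that was more positive, or less negative, in uniform pairs. Each group has 3 libraries, too few to test for single libraries apart from the rest. The named genes were in part chosen after their values were seen. Most genes with an *Ol* name below were reported by the study as higher in +N split than in +N roots. That choice favours a positive difference, so these signs are not independent evidence.

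Among genes of ammonium and nitrate uptake and assimilation the difference was called for *OlNADH-GOGAT2* (4.31), *OlAMT1;2/OlAMT1;3* (2.50), OL08G001452 (2.27), OL08G001450 (2.18), OL02G000926 (2.01), OL02G002068 (−1.26) and OL03G001277 (−0.97). Among aminotransferases and enzymes of the aspartate family it was called for *OlAK* (2.79), *OlAspAT* (1.88), OL03G000581 (1.8), *OlASADH* (1.39), *OlAlaAT1* (1.18), *OlAK-HSDH1* (0.97) and OL01G003115 (0.85), all positive. In central carbon metabolism and fermentation it was called for *OlPPDKA* (4.82), OL11G000556 (2.90), unmappedContigsG000545 (2.65), *OlPFK5* (2.42), *OlGAPC1* (2.0), OL05G000593 (1.90), *OlPFP1α3* (1.85), *OlALDC1* (1.64), *OlPFPB* (1.56), *OlTPI1* (1.35), *OlGPI* (1.12), *OlPPC4* (1.05), OL03G001901 (0.85), OL06G000607 (0.85), OL08G001191 (0.85), *OlENO1* (0.69) and OL08G000065 (−0.94), and only OL08G000065, an alcohol dehydrogenase, was negative.

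All 3 of the reductase and cysteine synthase genes of sulfur assimilation in this set had a larger decrease in uniform pairs, in contrast to a serine acetyltransferase, with OL05G002213 (0.87), OL04G000224 (−1.82), OL07G001412 (−1.25) and OL07G001411 (−1.21). Transcription factor and kinase genes with a called difference were OL03G000575 (2.67), OL03G001268 (0.71) and OL03G002324 (−1.86). The largest negative differences, OL05G002279 (−11.23) and unmappedContigsG001009 (−10.31), belong to genes with most of their +N reads in +N replicate 2. The remaining genes were OL03G001727 (1.73), OL02G002286 (1.53), OL11G000888 (1.41), OL06G002030 (1.40), OL03G000065 (1.19), OL02G001476 (1.10), OL07G002468 (0.995), OL05G000108 (0.56) and OL04G002901 (−1.06).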

How the results depend on the processing

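No gene that was called and named changed direction under any alternative run. Counts are given in the order higher in −N, lower in −N, difference from split pairs, and list members called (2211, 2587, 1397 and 522 as reported). An adjusted p under 0.01 left 989, 1393, 599 and 345, and a change of at least 2-fold left 411, 980, 736 and 185, both by construction. DESeq2's Wald test called 2352 genes for the difference, and the cause was not tested. Its other counts, 2767, 3063 and 557, lay within 1.5 times those reported, as did all counts with DESeq2 size factors, no filter, at least 1 CPM in 3 libraries, the 6 libraries only, the exact test and library totals. Library totals gave 2672 and 2248 for higher and lower. Leaving out 1 library gave 1476 to 2243 higher, 1842 to 2563 lower, 910 to 1375 for the difference (910 without −N replicate 3, 921 without +N split replicate 2, 924 without −N split replicate 2) and 422 to 522 list members.

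Deviations of same-numbered −N and +N libraries correlated at 0.04, 0.01 and 0.23, and those of −N split and +N split libraries at −0.13, 0.10 and 0.08. Different-numbered libraries gave −0.193 to 0.15. With 3 libraries in each group, these values cannot decide whether replicate numbers pair the samples. A fit with the replicate block called 2524 higher, 2774 lower, 1602 for the difference and 529 list members. The depth of 39071838 to 56252511 reads limits genes under 1 CPM most, where 1.69% and 3.51% were called.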
